A study of Mus musculus with 29 samples.

Results

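Lrp2, Cubn, Amn, Dab2 and Lrpap1 encode the endocytic receptors megalin and cubilin and the proteins that carry, anchor and chaperone them. They were taken as a set of 5 genes because they act in the same uptake route. The choice was made with earlier results of these data known, so counts of called genes describe the set and do not test it. The arrays held 20956 genes with a symbol, and each of the 5 was read from the scanner files through the accession of its probes. All 5 genes were among the 16332 that passed the filter on dim probes. They were represented by 7 probes, since Cubn and Lrpap1 had a second probe each.

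Megalin (Lrp2) is a very large receptor of the low-density lipoprotein receptor family, and cubilin (Cubn) is a large peripheral protein that has no membrane anchor of its own. Amnionless (Amn) anchors cubilin in the membrane and carries it to the cell surface, Dab2 is a clathrin adaptor that binds the cytoplasmic tail of megalin, and Lrpap1, also called RAP, is a chaperone of the endoplasmic reticulum that keeps newly made receptors of this family from binding ligands early. The receptors are best known from the kidney proximal tubule and from the visceral endoderm of the mouse embryo, which takes up maternal proteins, lipids and vitamins before the placenta works.

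Total RNA of cultured male mouse cells was hybridised to 29 single-colour Agilent arrays in 9 groups, in 2 array sets that share no slide, scan day or scanner software version. In the first set, all cells but XEN were of the double reporter line HRHnG. ESC were embryonic stem cells in 2i with LIF (3 arrays), Diff were that line differentiated for 7 to 8 days in Activin, CHIRON and LIF (3 arrays), and Mid and Late were nEnd cultures, the endoderm passaged from Diff in nEnd medium, at passage 7 to 10 and passage 14 to 15 (3 arrays each). XEN were cells of an extraembryonic endoderm line in standard XEN medium (3 arrays). In the second set, NACL were embryonic stem cells adapted for a minimum of 3 passages to N2B27 medium with Activin, CHIRON and LIF (4 arrays: 2 of line HVMC, 1 of E14 and 1 of E14-NanogGFP). Their counterpart 2iL had spent 3 or more passages in 2i and LIF (3 arrays, 1 of each of those lines). ADE were epiblast stem cells taken towards anterior definitive endoderm over 4 days (4 arrays), and EpiSC were a stable culture of epiblast stem cells derived from embryonic stem cells (3 arrays), the labels giving the line of both as HRHNG. Each nEnd replicate came from its own differentiation, per the design text. For the other groups the labels do not say what separates replicates, so p-values there measure only the spread between these arrays, which may be technical. XEN stands for 1 line, and the labels do not say whether that line was 1 clone.

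Levels are given as log2 of the background-corrected intensity relative to the 75th percentile of the array, which lay between 137 and 323 intensity units, so a level of 0 is that percentile. An array had 49.2% to 79.7% of its probes well above background, and the number of arrays limits the precision. The 8 primitive endoderm markers (such as Gata6 and Sox17) were all well above background on every Diff, Mid, Late, XEN and ADE array. The count was 3 to 5 of 8 in ESC, 4 to 5 in 2iL, 6 to 7 in EpiSC and 5 to 8 in NACL. It thus did not set every stem cell array apart. The 8 definitive and anterior endoderm markers summed to a linear level of 462 to 648 in ADE and 18.2 to 23.7 in EpiSC, in units of the 75th percentile. Of 7 visceral endoderm markers, 7 were well above background on every Diff, Mid and Late array. On XEN arrays 5 to 6 were, and on ADE arrays 6 to 7. Their summed linear level was 70.8 to 185 in Diff, 323 to 371 in Mid and 438 to 566 in Late. It was 340.4 to 644.5 in XEN and 61.5 to 126 in ADE. On bulk RNA, fewer cells of a type and less RNA per cell cannot be told apart.

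The promoters of the genes were searched because all 5 genes rose in Diff relative to ESC, and those of Dab2, Lrp2 and Cubn are printed. RefSeq windows of 300 bases (250 before the start and 50 after it, assembly GRCm38.p6) were found for 5 of 5 genes, 6 windows in all, since Dab2 had 2 starts. Both strands were searched for GATA letters (AGATAA or AGATAG and also TGATAA or TGATAG), HNF1 letters (GTTAAT), FOX letters (TGTTTAC or else TGTTTGC), SOX letters (ACAAAG or else ACAATG) and HNF4 letters (CAAAGT), the SOX and HNF4 letters overlapping each other. Capitals mark the matches, printed 5′ to 3′ on the strand of the gene. The windows lie at chr15:6299539-6299838 (+) and chr15:6386498-6386797 (+) for Dab2, chr2:69585980-69586279 (-) for Lrp2 and chr2:13491827-13492126 (-) for Cubn.
Dab2, first window: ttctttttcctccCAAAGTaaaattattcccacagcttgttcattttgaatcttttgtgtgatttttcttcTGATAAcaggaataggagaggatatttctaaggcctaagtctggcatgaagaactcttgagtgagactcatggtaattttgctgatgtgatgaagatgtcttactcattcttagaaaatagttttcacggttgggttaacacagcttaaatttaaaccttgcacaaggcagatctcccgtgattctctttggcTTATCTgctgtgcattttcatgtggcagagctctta
Dab2, second window: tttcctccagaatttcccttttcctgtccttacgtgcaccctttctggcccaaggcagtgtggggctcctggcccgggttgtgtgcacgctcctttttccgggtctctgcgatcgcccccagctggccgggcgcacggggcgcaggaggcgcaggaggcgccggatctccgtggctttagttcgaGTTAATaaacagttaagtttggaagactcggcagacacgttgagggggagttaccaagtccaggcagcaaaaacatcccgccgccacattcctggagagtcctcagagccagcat
Lrp2: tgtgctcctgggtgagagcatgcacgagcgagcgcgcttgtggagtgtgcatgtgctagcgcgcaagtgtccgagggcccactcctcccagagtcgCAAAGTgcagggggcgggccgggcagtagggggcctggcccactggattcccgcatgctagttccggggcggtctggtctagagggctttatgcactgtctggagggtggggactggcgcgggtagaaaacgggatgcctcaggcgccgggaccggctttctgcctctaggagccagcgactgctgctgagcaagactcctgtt
Cubn: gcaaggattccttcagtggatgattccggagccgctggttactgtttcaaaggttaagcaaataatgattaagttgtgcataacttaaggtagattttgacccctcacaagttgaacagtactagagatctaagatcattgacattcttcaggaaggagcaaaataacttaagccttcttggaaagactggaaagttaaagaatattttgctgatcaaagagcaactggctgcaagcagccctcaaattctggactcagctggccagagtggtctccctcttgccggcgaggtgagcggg
The first Dab2 window held 2 GATA matches, at bases -179 to -174 and 14 to 19 relative to the start, and an HNF4 match at -237 to -232. Its second window held an HNF1 match at -65 to -60, and the Lrp2 window an HNF4 match at -154 to -149. No match of these letters was found in the windows of Cubn, Amn and Lrpap1. Among all 32851 windows of the RefSeq table, 29.8% held a GATA, 7.1% an HNF1, 8.48% a FOX, 28.6% a SOX and 14.4% an HNF4 match. GC content was 37.7% and 59.3% in the Dab2 windows, 65.0% for Lrp2 and 44.3% for Cubn, with a median of 52.7% over all windows. In the windows not printed it was 62.3% for Amn and 61.3% for Lrpap1.

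The first comparison asks how naive stem cells changed over 7 to 8 days of differentiation. All 5 genes rose in Diff, and 5 of 5 were called higher, against 23.5% of all genes tested in that direction (42.4% in either). Lrp2 levels were 5.84, 6.03 and 6.32 in Diff, against -3.56, -3.52 and -2.94 in ESC, a log2 difference of 9.40 ± 0.48 (SE; adjusted p = 9.7e-13 by limma). Cubn levels were 7.00, 7.05 and 7.03 in Diff, against -5.62, -6.31 and -5.89 in ESC. Its probe was not well above background on any ESC array, so the difference is given as at least 3360-fold (adjusted p = 4.8e-12), setting the Diff mean against the lowest signal of a probe well above background on each ESC array, or the probe's own signal where that was higher.

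Amn, the membrane partner, stood at 6.83, 6.85 and 6.67 in Diff, against -3.61, -3.27 and -1.64 in ESC, a difference of 9.63 ± 0.40 (adjusted p = 6.2e-14). The third ESC array was the highest of its group, and still lay far below every Diff array. Dab2 stood at 5.95, 6.01 and 5.77 in Diff, against -6.73, -6.30 and -7.07 in ESC, where 0 of 3 arrays were well above background, and was at least 1550-fold higher (adjusted p = 4.5e-10). Lrpap1, the chaperone, stood at 7.69, 7.59 and 7.37 in Diff, against 3.85, 3.77 and 3.76 in ESC, where it was already well above background, and was 3.76 ± 0.28 higher (adjusted p = 3.3e-10). The groups did not overlap for any of the 5 genes, and the share of all genes without overlap is not given here. On slide 3, which held both groups, the differences were 9.57 for Lrp2, 10.29 for Amn and 3.78 for Lrpap1.

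**Figure D1:**
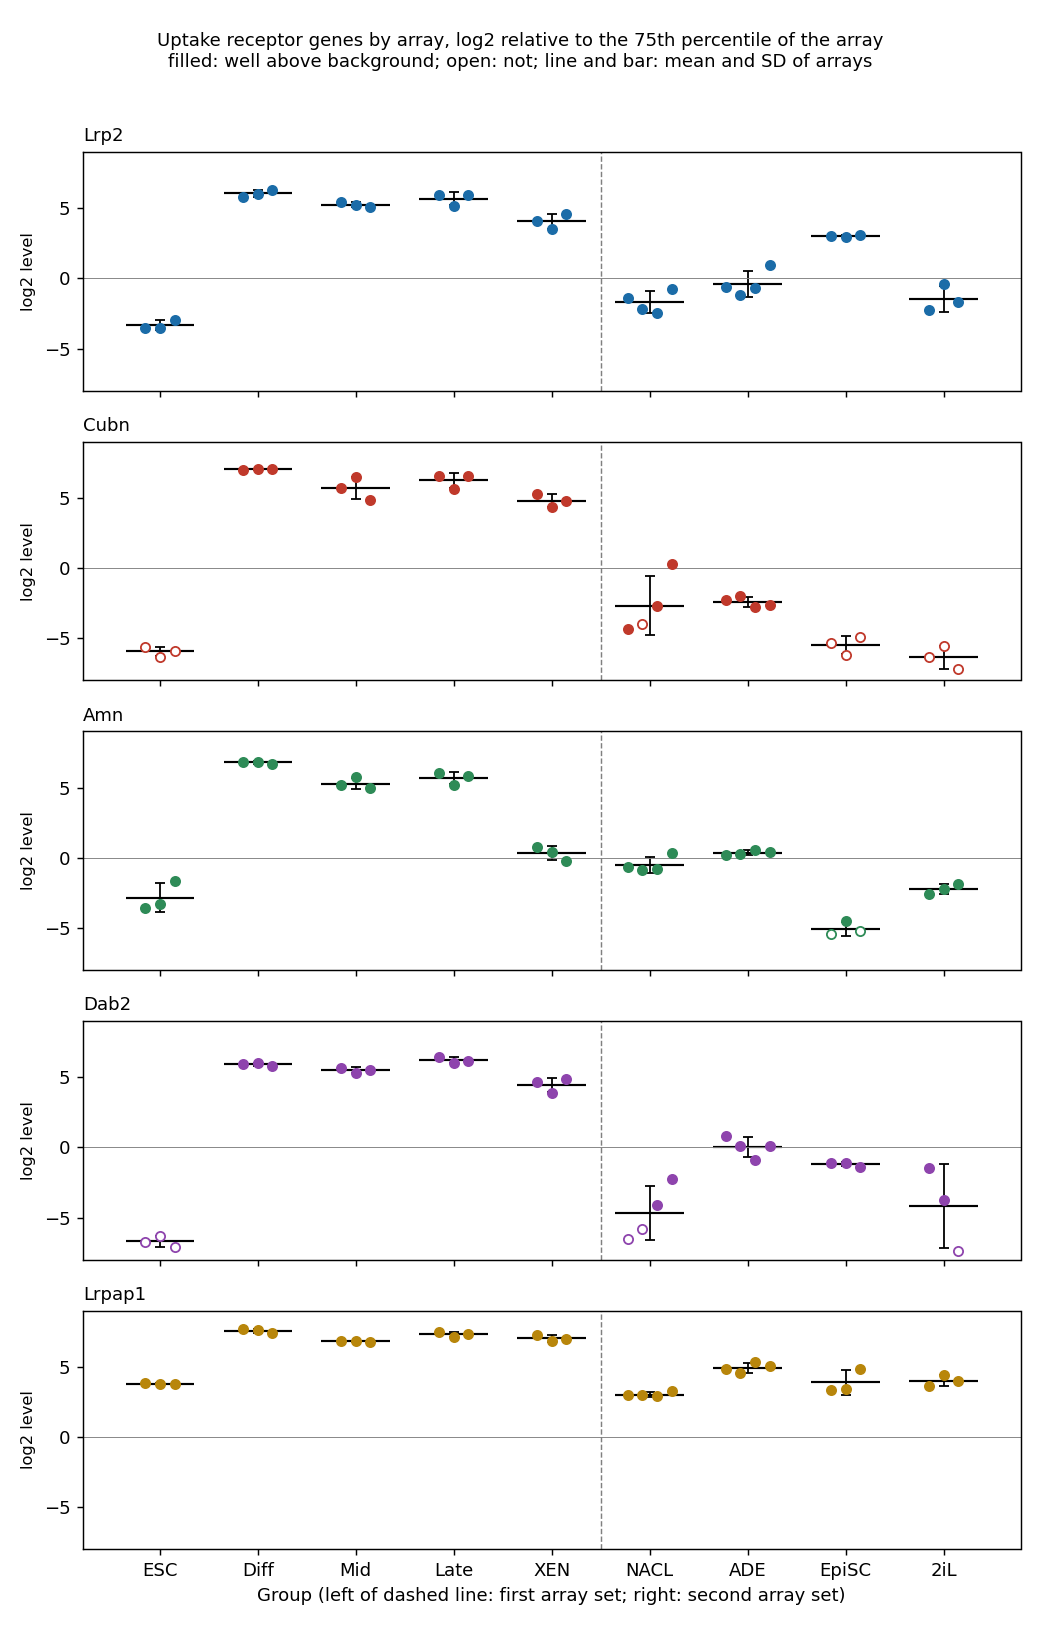
Each point is an array, with its log2 level relative to the array's 75th percentile on the vertical axis and the 9 groups on the horizontal axis. Filled points were well above background, open points were not, lines and bars are the mean and SD, and the dashed line divides the array sets. All 5 genes lie higher in Diff, Mid, Late and XEN than in ESC, Amn lies between in XEN, and Lrp2 is high in EpiSC, where Amn is low.

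On expansion of the endoderm from Diff to Mid, all 5 genes were measured lower in Mid. The share of all genes measured lower is not given here, and the median difference of all genes was -0.06. Only Amn was called (1 of 5 lower, against 16.8% of all genes tested, and 29.1% in either direction), and 1 in 5 is close to the share called lower. Amn stood at 5.17, 5.72 and 4.94 in Mid, against 6.83, 6.85 and 6.67 in Diff, and was 2.84-fold lower (95% interval of the log2 difference -2.34 to -0.67; adjusted p = 0.007, limma). Lrp2 stood at 5.42, 5.24 and 5.12 in Mid, and its difference of -0.80 did not pass (adjusted p = 0.23). Cubn stood at 5.74, 6.47 and 4.88 in Mid, with a difference of -1.33 that did not pass (adjusted p = 0.2). Its Mid arrays spread widely (SD 0.79), whereas its Diff arrays lay within 0.03 (SD). Dab2 differed by -0.40 (adjusted p = 0.8) with Mid arrays at 5.68, 5.30 and 5.53. Lrpap1 differed by -0.74 (adjusted p = 0.053) with Mid arrays at 6.84, 6.84 and 6.77. With the spread taken from the first array set alone, Cubn (adjusted p = 0.02) and Lrpap1 (adjusted p = 0.0059) passed as well, at the same differences. Within the slides that held both groups, the Amn difference was -1.66 and -1.12.

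Passage added no called change: Late minus Mid gave 0 of 5 genes, against 6.85% of all genes (0% with the pairing of the arrays as a block). A count of 0 in 5 is close to those shares. The 95% interval of the log2 difference was narrowest for Lrpap1 (-0.10 to 1.07) and widest for Dab2 (-1.29 to 2.69), so the absence of a call does not show that levels were the same. Lrp2 stood at 5.93, 5.14 and 5.93 in Late, Cubn at 6.57, 5.66 and 6.53, and Amn at 6.01, 5.18 and 5.82, each overlapping Mid. The second Late array was the lowest of its group for these 3 genes. Dab2 stood at 6.42, 6.03 and 6.17 in Late and Lrpap1 at 7.44, 7.13 and 7.33, both above every Mid array. The 5 differences lay between 0.39 (Amn) and 0.70 (Dab2), with adjusted p from 0.34 to 0.74 by limma and 0 of 5 at an unadjusted p under 0.05 (0.0972 to 0.473). The replicate numbers of Mid and Late were taken to pair their arrays, from same-number correlations of 0.129 to 0.218. With that pairing as a block the call of 0 genes stood too (adjusted p 0.16 to 0.55, limma).

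Against XEN cells, the question is how far the expanded endoderm resembles an extraembryonic endoderm line, the cell line differing between the sides. Amn was higher in nEnd than in XEN. It stood at 5.17, 5.72 and 4.94 in Mid and 6.01, 5.18 and 5.82 in Late, against 0.76, 0.40 and -0.21 in XEN, a difference of 5.16 ± 0.35 (SE, 6 nEnd arrays and 3 XEN arrays; adjusted p = 4.9e-11, limma), or 35.7-fold. Lrp2, at 4.11, 3.52 and 4.56 in XEN, was 1.40 ± 0.41 higher in nEnd (adjusted p = 0.0089), with no overlap (share of all genes not given here). Without the second XEN array, the lowest, that difference was 1.13 and missed the threshold (adjusted p = 0.064). These 2 of 5 genes were called higher, against 16.6% of all genes (41.1% in either direction), and the count of 2 in 5 is close to that either-direction share.

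Cubn stood at 5.28, 4.39 and 4.78 in XEN, overlapping nEnd, and its difference of 1.16 did not pass (adjusted p = 0.16). Dab2 stood at 4.63, 3.84 and 4.85 in XEN, below every nEnd array, and its difference of 1.42 ± 0.83 did not pass (adjusted p = 0.19). With the spread taken from the first array set alone, the same differences passed for Cubn (adjusted p = 0.013) and Dab2 (adjusted p = 0.00034). The shared spread includes the 2iL arrays, where Dab2 had an SD of 2.98. Lrpap1, at 7.28, 6.84 and 6.94 in XEN, differed by 0.04 (95% interval -0.47 to 0.54; adjusted p = 0.92). Within the slides that held both groups, Amn differed by 4.83 and 5.18 and Lrp2 by 1.57 and 1.91. Within scan day 1 (5 nEnd arrays and 2 XEN arrays) Amn differed by 5.001 and Lrp2 by 1.72, and within scan day 2 (1 array each) Amn differed by 5.15 and Lrp2 by 0.56. The 6 nEnd arrays entered the fit as separate arrays although a Mid array and the Late array with its number form a pair. With those pairs as a random block Amn (adjusted p = 1.6e-10) and Lrp2 (adjusted p = 0.012) still passed and Cubn and Dab2 did not (adjusted p = 0.19 and 0.21), whereas with the number of every array as a fixed block Dab2 passed as well (adjusted p = 0.0028).

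Diff against XEN gave 3 of 5 genes higher, against 18.4% of all genes (41.5% in either direction). Amn was 6.47 ± 0.40 higher in Diff (88.5-fold; adjusted p = 1.3e-11, limma), Lrp2 2.00 ± 0.48 higher (adjusted p = 0.0017) and Cubn 2.21 ± 0.74 higher (adjusted p = 0.02). None of these overlapped, and the share of all genes without overlap is not given here. Without the second XEN array Cubn differed by 2.00 and missed the threshold (adjusted p = 0.065). Dab2 differed by 1.47 (adjusted p = 0.24) and Lrpap1 by 0.53 (adjusted p = 0.14), and both passed with the spread of the first array set (adjusted p = 0.00069 and 0.021).

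XEN against ESC gave 5 of 5 genes higher, against 30.7% of all genes (52.1% in either direction). Lrp2 was 7.40 ± 0.48 higher in XEN (adjusted p = 1.1e-11, limma), Cubn at least 726-fold (adjusted p = 3.1e-11), Dab2 at least 560-fold (adjusted p = 1.2e-09) and Lrpap1 3.23 ± 0.28 (adjusted p = 1.4e-09). Amn was 3.16 ± 0.40 higher (8.93-fold; adjusted p = 5.7e-07), its XEN mean of 0.32 lying between the ESC mean of -2.84 and the Mid mean of 5.28.

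**Figure D2:**
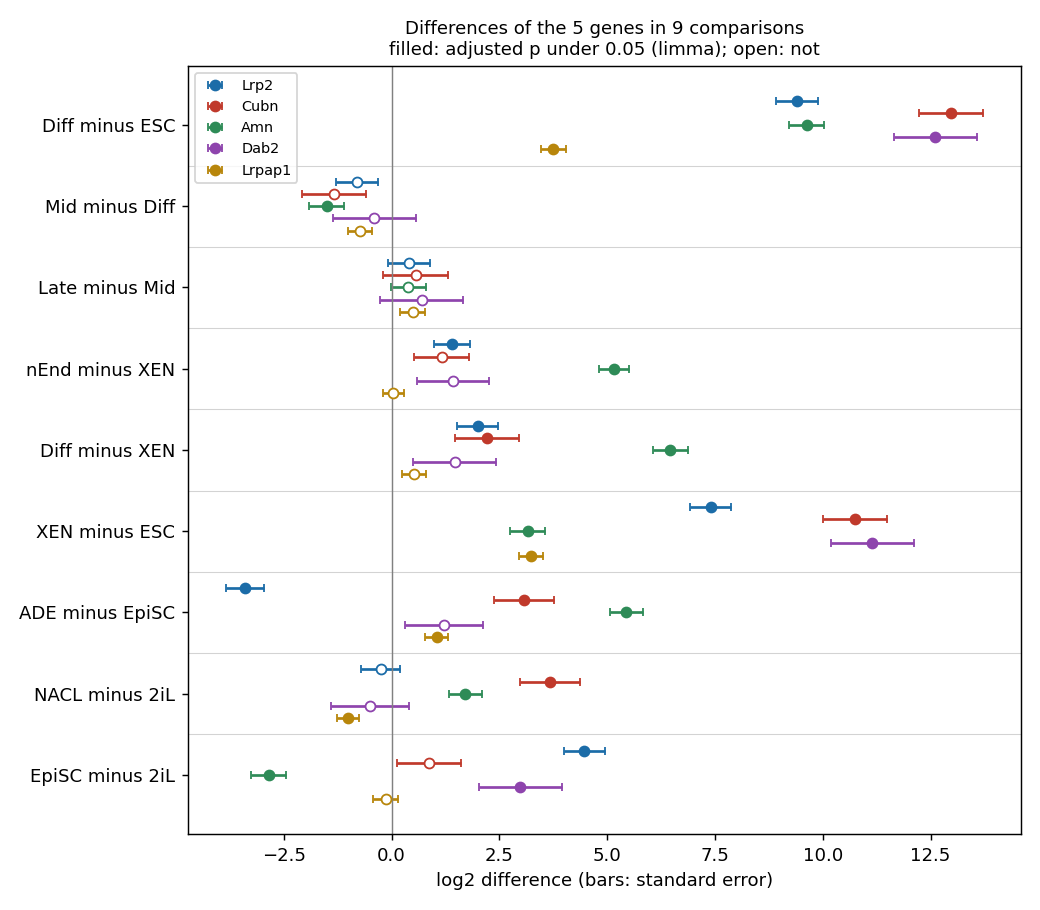
Each point is the log2 difference of a gene in a comparison, named on the vertical axis with the group minus its counterpart, and bars are standard errors. Filled points passed an adjusted p under 0.05 (limma), and points of Cubn and Dab2 against ESC are fitted values from probes not well above background there. Points for all 5 genes lie far right in Diff minus ESC and XEN minus ESC, Amn stands alone in nEnd minus XEN, and Lrp2 lies left of 0 while Amn lies right in ADE minus EpiSC.

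Differentiation of epiblast stem cells to anterior definitive endoderm moved Lrp2 and Amn in opposite directions. Lrp2 fell, with levels of -0.61, -1.16, -0.68 and 0.98 in ADE, against 3.04, 2.99 and 3.08 in EpiSC, a difference of -3.40 ± 0.45 (SE; adjusted p = 2.4e-06, limma). The fourth ADE array was the highest of its group, still below every EpiSC array. Amn rose, with levels of 0.21, 0.27, 0.56 and 0.43 in ADE, against -5.47, -4.54 and -5.22 in EpiSC. In EpiSC 1 of 3 arrays was well above background, and the difference was 5.44 ± 0.38 (adjusted p = 2.7e-10, limma). Its size rests on EpiSC values near background and lay between 2.36 and 5.71 over the alternatives run.

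Cubn stood at -2.27, -2.02, -2.74 and -2.63 in ADE, against -5.35, -6.18 and -4.94 in EpiSC, where 0 of 3 arrays were well above background. It was at least 5.62-fold higher in ADE (adjusted p = 0.0011). The second Cubn probe, A_55_P2047638, was not well above background on any ADE or EpiSC array, and its difference of 0.43 did not pass (adjusted p = 0.5). Lrpap1 stood at 4.82, 4.52, 5.33 and 5.03 in ADE, against 3.32, 3.44 and 4.87 in EpiSC, and was 1.04 ± 0.26 higher (adjusted p = 0.0029), with overlap through the third EpiSC array. With only the ADE and EpiSC arrays in the fit it did not pass (adjusted p = 0.08). Dab2 stood at 0.77, 0.09, -0.91 and 0.08 in ADE, against -1.15, -1.10 and -1.37 in EpiSC, with a difference of 1.22 that did not pass (adjusted p = 0.32) although the arrays did not overlap. In all, 3 of 5 genes were called higher (16.9% of all genes) and 1 of 5 lower (20.7%; 37.6% in either direction). Within slides 5 and 6 the Lrp2 difference was -3.92 and -2.88. Fibroblast or feeder markers were lower in ADE (4 of 6 called and 0 higher, median difference -3.10), their summed level being 3.88 to 17.6 in ADE and 16.9 to 25.9 in EpiSC. The fourth ADE array, highest for Lrp2, also had the highest summed level of pluripotent stem cell markers in ADE, 12.3 against 3.73 to 6.89 on the other ADE arrays. The part of these markers in the results was not tested.

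Primed EpiSC were also compared with naive 2iL cells, the lines differing. Lrp2 was 4.47 ± 0.48 higher in EpiSC, against 2iL levels of -2.23, -0.43 and -1.65 (adjusted p = 8.7e-08, limma). Amn was 2.85 lower on the log2 scale (difference -2.85 ± 0.40, adjusted p = 4.6e-06), with 2iL arrays at -2.56, -2.26 and -1.87. Its probe was well above background on 1 of 3 EpiSC arrays, so the size rests on values near background, and it lay between -3.12 and -0.63 over the alternatives run. Dab2 was 2.98 ± 0.96 higher (adjusted p = 0.016), with 2iL arrays at -1.44, -3.76 and -7.36, the last not well above background. Without 2iL replicate 3 the Dab2 difference was 1.39 and did not pass (adjusted p = 0.18). With the spread taken from the second array set alone, the full difference did not pass either (adjusted p = 0.083, limma). Cubn was not well above background on any array of either group, and Lrpap1 differed by -0.14 (adjusted p = 0.75). These calls amount to 2 of 5 genes higher (21.5% of all genes) and 1 of 5 lower (20.1%; 41.6% in either direction). Fibroblast or feeder markers were also higher in EpiSC (5 of 6 called, summed level 16.9 to 25.9 in EpiSC and 1.73 to 2.77 in 2iL), and their part in these results was not tested.

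Stem cells adapted to Activin, CHIRON and LIF (NACL) were compared with those in 2i and LIF (2iL). Amn stood at -0.69, -0.91, -0.82 and 0.36 in NACL, against -2.56, -2.26 and -1.87 in 2iL, and was 1.71 ± 0.38 higher (adjusted p = 0.005, limma). With the cell line as a block, which pairs the groups by line, its difference was 1.80 and still passed (adjusted p = 0.035). Cubn stood at -4.36, -3.98, -2.69 and 0.32 in NACL, where 3 of 4 arrays were well above background, against -6.33, -5.53 and -7.20 in 2iL, where 0 of 3 were, and was at least 4.01-fold higher (adjusted p = 0.0015). The line block gave an adjusted p of 0.15 for Cubn, and its second probe differed by 1.00 (adjusted p = 0.19). Lrpap1 stood at 2.95, 2.95, 2.90 and 3.24 in NACL, against 3.66, 4.39 and 4.00 in 2iL. Its difference was -1.01 ± 0.26 (adjusted p = 0.017, limma). It did not pass with the line block (adjusted p = 0.12) or with the spread of the second array set alone (adjusted p = 0.1).

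Lrp2, at -1.37, -2.20, -2.44 and -0.73 in NACL, differed by -0.25 (adjusted p = 0.84). Dab2, at -6.53, -5.85, -4.10 and -2.26 in NACL and -1.44, -3.76 and -7.36 in 2iL, differed by -0.50 (adjusted p = 0.84), and its direction turned with single arrays left out. Called were 2 of 5 genes higher (4.12% of all genes) and 1 of 5 lower (4.13%; 8.25% in either direction). With only the NACL and 2iL arrays in the fit, 0 of 5 passed (adjusted p from 0.052 for Amn).

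NACL replicate 4, of line E14-NanogGFP, had the highest level of its group for all 5 genes. That array also had the highest share of probes well above background, 79.7%, and the highest summed primitive endoderm level, 4.01, against 1.92 to 1.95 on the other NACL arrays. Its Gata6 level was -0.26, with -3.43, -2.83 and -2.66 on the others. On 2iL arrays the summed primitive endoderm level was 1.07 to 1.27. Of the 8 primitive endoderm markers, 3 were called higher in NACL than in 2iL and 0 lower. The shares of all genes were 4.12% and 4.13%. The part of these markers in the result was not tested. Without NACL replicate 4, Amn differed by 1.42 (adjusted p = 0.016, limma) and Lrpap1 by -1.08 (adjusted p = 0.016). Cubn was then at least 2.0-fold higher (adjusted p = 0.00057), against at least 4.01-fold with that array.

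**Figure D3:**
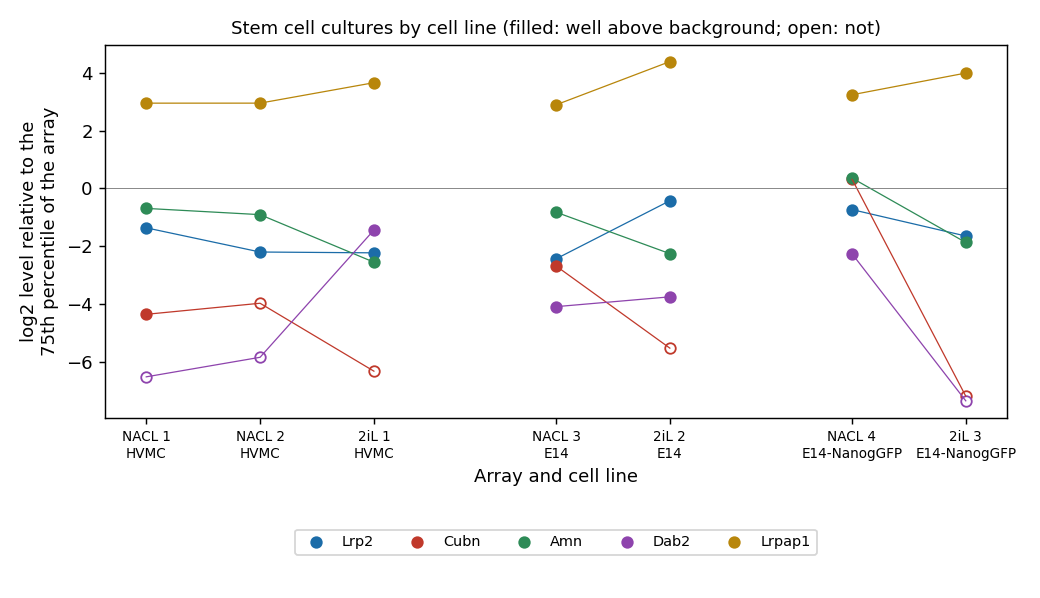
The horizontal axis lists NACL and 2iL arrays by cell line, NACL left of 2iL, and the vertical axis gives the log2 level relative to the array's 75th percentile. Filled points were well above background, open points were not, and lines join arrays of a line. Amn lies higher in NACL in each line, Lrpap1 lies lower, and Dab2 lies lower in HVMC and E14 but higher in E14-NanogGFP.

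The changes from ESC to Diff were set against those on the other inductions in a single test of the difference. Relative to ADE minus EpiSC, the Diff minus ESC difference was larger by 12.80 for Lrp2 (95% interval 11.44 to 14.16), 4.18 for Amn and 2.71 for Lrpap1. All 5 were called higher, against 21.9% of all genes (36.7% in either direction). Relative to NACL minus 2iL, it was larger by 9.65 for Lrp2, 7.91 for Amn and 4.76 for Lrpap1, again 5 of 5 called higher (17% of all genes; 30.3% in either direction). Cubn and Dab2 have no measured size here, since their probes were not well above background in ESC, nor that of Cubn in EpiSC and 2iL. For Amn the first test rests on EpiSC values near background, with 1 of 3 arrays well above it. Its size there lay between 3.80 and 5.60 over the alternatives run. The second test sets differentiating against stable culture with Activin, CHIRON and LIF. Both differences lie within 1 array set each, so a shift between the sets cancels only if it is the same for both groups of a set.

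Ordering the 9 group means shows how far the genes share a pattern, with the caution that the array sets were scanned apart. Lrp2 ran Diff, Late, Mid, XEN, EpiSC, ADE, 2iL, NACL and ESC from high to low. Its neighbours Diff and Late, Late and Mid, ADE and 2iL, and 2iL and NACL overlapped. Cubn ran Diff, Late, Mid, XEN, ADE, NACL, EpiSC, ESC and 2iL, with overlap from Late to XEN, between ADE and NACL, and among EpiSC, ESC and 2iL, whose arrays were all not well above background. Amn ran Diff, Late, Mid, ADE, XEN, NACL, 2iL, ESC and EpiSC, and Late and Mid, ADE and XEN, XEN and NACL, and 2iL and ESC overlapped. Dab2 ran Late, Diff, Mid, XEN, ADE, EpiSC, 2iL, NACL and ESC, with overlap only from 2iL to ESC. Lrpap1 ran Diff, Late, XEN, Mid, ADE, 2iL, EpiSC, ESC and NACL, with overlap from Diff to XEN and from 2iL to ESC.

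Correlations between the genes are a description over arrays that share lines, media and depth. Within each set they rest in part on arrays where a probe was not well above background. Among these were every ESC, EpiSC and 2iL array for Cubn and every ESC array for Dab2. Over the 15 arrays of the first set Lrp2 and Cubn had r = 0.99, and over the 14 of the second set r = -0.21. Lrp2 and Amn had r = 0.89 in the first set and r = -0.68 in the second. Cubn and Amn had r = 0.87 in the first set, 0.70 in the second and 0.95 over the 6 nEnd arrays. Dab2 and Lrpap1 had r = 0.98 in the first set, 0.57 in the second and 0.95 over the nEnd arrays. Over the nEnd arrays the 10 pairs ranged from 0.41 (Cubn and Dab2) to 0.95.

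Of the other genes tested, those most like each of the 5 over all 29 arrays were found by Pearson's r. For Lrp2 they were B2m, the light chain of class I histocompatibility molecules (r = 0.97; 0.98 over the first set), Gsn (gelsolin, r = 0.96; 0.98) and Clic5 (r = 0.95; 0.99). For Cubn they were Habp2, a secreted serine protease (r = 0.98; 0.99), Ihh, a hedgehog ligand of visceral endoderm (r = 0.98; 0.98), and S100g, a calcium-binding protein (r = 0.98; 0.98). For Amn they were the proteoglycan gene Srgn (r = 0.93; 0.92), Smim6 (r = 0.92; 0.94) and Slc66a1 (r = 0.92; 0.92). For Dab2 they were Col4a2, a chain of basement membrane collagen (r = 0.97; 0.99), Rab2a (r = 0.96; 0.98) and 1700025G04Rik (r = 0.96; 0.99). For Lrpap1 they were Retreg1, a receptor for turnover of the endoplasmic reticulum (r = 0.97; 0.96), the motor Myo6 (r = 0.97; 0.98) and Plod3, a lysyl hydroxylase (r = 0.97; 0.97). Over the second set, r was lower than over the first for each of these genes, from 0.75 (Smim6) to 0.91 (Srgn). B2m, like Lrp2, had a higher mean in EpiSC (4.51) than in ADE (2.73) and 2iL (2.54).

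Other genes of the uptake route were taken as 4 lists, also chosen with earlier results of these data known. In Diff minus ESC, 14 of 27 genes of the clathrin coat, adaptors and recycling were called higher and 2 lower, against 23.5% and 18.9% of all genes, with a median difference of 0.58 against -0.04 for all genes. Among them were Clcn5, an endosomal chloride-proton exchanger (4.83 ± 0.41), Myo6 (3.46 ± 0.31) and Rab11a of recycling endosomes (2.59 ± 0.21), all log2 differences with SE and adjusted p of 6.1e-09 or less by limma. The low-density lipoprotein receptor family and sorting receptors, to which Lrp2 belongs but which was listed without it, had 2 higher and 5 lower of 13 tested, among them Sorl1 (-3.29), Lrp8 (3.14) and Lrp4 (-2.87). Their median was -0.15. Lrp1b of this list was not tested.

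Carriers and ligands gave 8 higher and 1 lower of 16 tested in Diff minus ESC, against 23.5% and 18.9% of all genes. Among them were Ttr (at least 85.8-fold), Afp (at least 4.88-fold) and Lpl, which was lower (-4.08). Their median was 1.02. Cblif, Alb, Apoh and Shh of the list were not tested. The list shares Afp, Ttr, Apoa1, Apob and Rbp4 with the visceral endoderm markers, so its counts are not separate from theirs. Genes of cobalamin handling after uptake gave 3 higher and 5 lower of 11, against the same shares of 23.5% and 18.9%. Among them were Abcd4 (-3.01), Lmbrd1 (2.67) and Mmachc (-1.43), and the median was -0.58.

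In Mid minus Diff, where Amn fell, 6 of 16 carriers were called higher and 0 lower, against 12.3% and 16.8% of all genes, among them Clu (6.27), Apoa1 (5.61) and Rbp4 (5.58), with a median of 0.41 against -0.06 for all genes. In nEnd minus XEN, 10 of 16 were called higher and 1 lower, against 16.6% and 24.5% of all genes, among them Apoa1 (at least 32.6-fold), Lpl (lower, -4.94) and Apom (4.41), with a median of 1.49 against -0.03. In the same comparison the clathrin and adaptor list had 5 higher and 5 lower of 27, close to those shares. In ADE minus EpiSC, where Lrp2 fell, the carriers had 8 higher and 2 lower of 16, against 16.9% and 20.7% of all genes, among them Apoa1 (at least 145-fold), Ambp (7.46) and Rbp4 (6.59), with a median of 1.26 against -0.05. The receptor family list had 1 higher (Lrp10, 0.91) and 1 lower (Lrp11, -3.44) of 13.

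**Figure D4:**
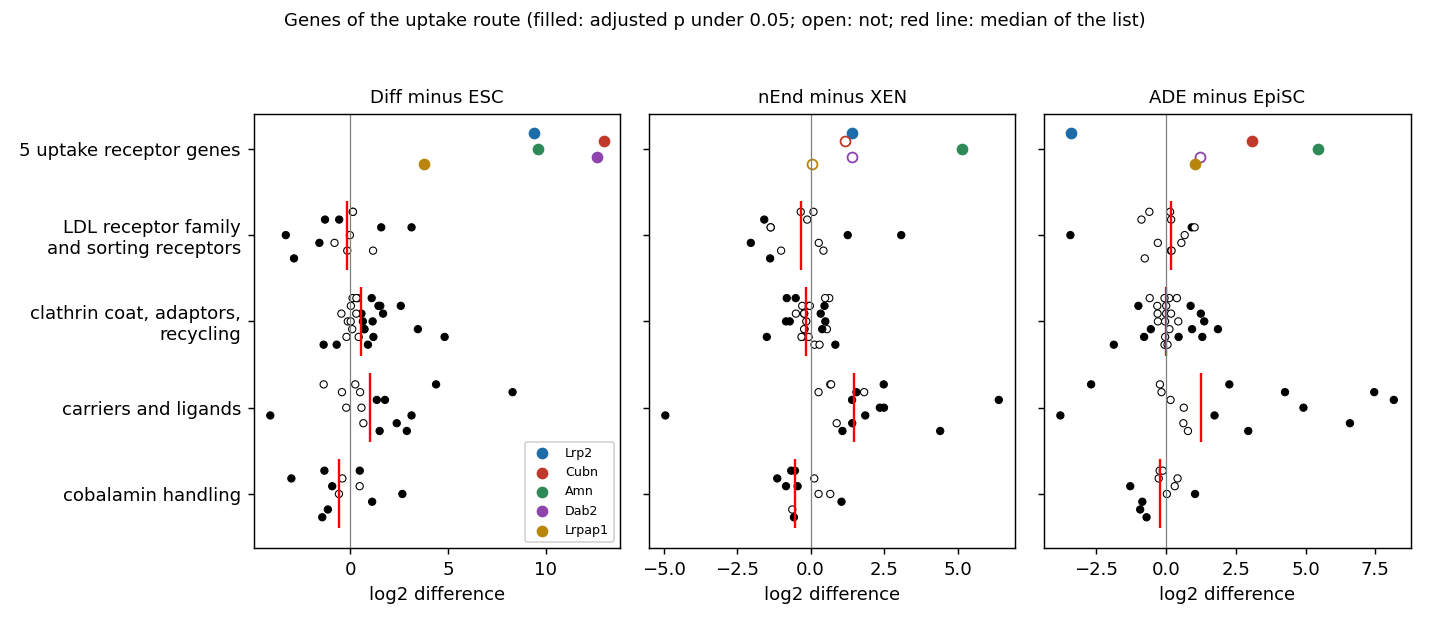
The log2 difference is on the horizontal axis for 3 comparisons, with the 5 genes in the top row and 4 gene lists below. Filled points passed an adjusted p under 0.05 (limma), open points did not, and the red line is the median of the list. The 5 genes lie right of most list genes in Diff minus ESC, and the carriers lie furthest right of the lists in nEnd minus XEN and ADE minus EpiSC.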

How the data were processed

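The 29 Agilent arrays were deposited as scanner files. Per the file headers, the authors' Feature Extraction software (version 11.0.1.1 for the first array set, 12.0.1.1 for the second, while the submitters' processing notes give 9.1) wrote a background-corrected intensity per spot, and the headers name build mm9. The log2 values were calculated here from that deposited intensity, averaging spots of a probe after leaving out irregular spots (132 to 243 of 59305 per array; 0 saturated), minus each array's 75th percentile over all non-control probes. The authors' series matrix, of unstated scale and centring, had column medians of 5.94 to 5.949, and its correlation with the log2 signal of the scanner files was 0.909 to 0.937. It lists no probe of Lrp2 and only the dimmer of Cubn, and served as an alternative.

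Accessions were named through RefSeq (GRCm38.p6), 27636 of 55681 probes receiving a symbol, and the probe with the highest mean stood for a gene. Genes whose probe was well above background on every array of some group (16332) were fitted with 9 group means in limma 3.58.1 (R 4.3.3), two-sided, with Benjamini-Hochberg adjustment within each comparison and a threshold of 0.05. For nEnd, the Mid and Late means were averaged. The fit was tested on simulated data.

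The 5 genes and all lists were chosen with earlier results of these data known. Besides the 5 genes, at most the 3 called genes with the largest difference were named per list and comparison, and the 3 genes most correlated with each of the 5. Replicate numbers were taken to pair Late with Mid, where each correlation of same-numbered deviations was over 0.1 (0.129 to 0.218), and no other groups. Single correlations elsewhere were higher, up to 0.315 between ADE and EpiSC. Mid and Late replicates 1 shared slide 1, and their replicates 2 shared slide 3. The part of the slide in these correlations was not tested. Cell lines pair NACL with 2iL, per the labels. Alternatives were other scalings, background corrections, filters, probes, sample sets and blocks. The planned background correction on mean spot signals was run on median spot signals.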

Additional observations from a re-analysis of the deposited data

Results flagged for a closer look

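Among 10 checks of groups of 4 arrays, 2 found an array far from the others of its group, a gap that chance gives in about 1 of 20 groups. Both were NACL replicate 4, at a level of 0.36 for Amn and 3.24 for Lrpap1. Its gap to the nearest array took 0.829 of the group's range for Amn, at the limit of 0.829, and 0.831 for Lrpap1.

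For each of the 5 genes, the difference between Diff and ESC was larger than the difference between ADE and EpiSC by the test of that difference: by 12.80 (Lrp2), 9.89 (Cubn), 4.18 (Amn), 11.40 (Dab2) and 2.71 (Lrpap1) on the log2 scale. It was also larger than the difference between NACL and 2iL, by 9.65 (Lrp2), 9.29 (Cubn), 7.91 (Amn), 13.11 (Dab2) and 4.76 (Lrpap1). The values of Cubn and Dab2 are fitted values and not measured sizes, since their probes were not well above background in ESC, nor that of Cubn in EpiSC and 2iL. The Amn value against ADE and EpiSC rests on values near background in EpiSC. All 10 kept their call over the alternatives run, the series matrix giving none for Lrp2.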

How the results depend on the processing

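All genes measured (the series matrix has no Lrp2) kept their call in Diff minus ESC, in XEN minus ESC and in both tests of a difference between inductions under every alternative run, and Late minus Mid gave 0 of 5 under each. With each array left out in turn, the count was 1 to 2 for nEnd minus XEN (1 without XEN replicate 2), 2 to 3 for Diff minus XEN, 2 to 3 for NACL minus 2iL, 2 to 4 for EpiSC minus 2iL, 4 for ADE minus EpiSC and 1 for Mid minus Diff. Mid minus Diff gave 3 genes with the fit limited to the array set, and 2 with only the groups compared, the series matrix, slide as a fixed block or slide as a random block. Diff minus XEN gave 5, and nEnd minus XEN 4, with the array set alone or slide as a fixed block, and nEnd minus XEN also 4 with only the groups compared or with normexp and quantile normalization. NACL minus 2iL gave 1 with the cell line block and 0 with only the groups compared. With only the groups compared, 16.7% of all genes were called in Mid minus Diff and 2.76% in NACL minus 2iL. A count without a share of all genes for its fit cannot be set against all genes. The numbers in the replicate block were not taken to pair arrays other than those of Late and Mid (correlations of -0.22 to 0.32). That block gave 0 for NACL minus 2iL (leaving out NACL replicate 4) and changed no other count by over 1.5 times. It gave Dab2 an adjusted p (limma) of 0.0028 in nEnd minus XEN, 0.03 in Diff minus XEN and 0.12 in EpiSC minus 2iL. In none of these was the cause tested.

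Single values that changed direction had not passed in the fit reported: Cubn in EpiSC minus 2iL (-0.23, second probe), Dab2 in NACL minus 2iL (0.87 without 2iL replicate 1, 0.12 without NACL replicate 1), Lrp2 there (0.25 without 2iL replicate 2, 0.0022 without NACL replicate 3), and Lrpap1 in Diff minus XEN (-0.033, second probe), EpiSC minus 2iL (0.05 without 2iL replicate 2, 0.14 without EpiSC replicate 1, 0.08 without EpiSC replicate 2) and nEnd minus XEN (-0.32 with median scaling, -0.034 with the second probe, -0.053 without XEN replicate 2, -0.0046 without XEN replicate 3). With each array left out, the range was -2.08 to 0.87 for Dab2 and -0.65 to 0.25 for Lrp2 in NACL minus 2iL, and for Lrpap1 -0.63 to 0.14 in EpiSC minus 2iL and -0.053 to 0.17 in nEnd minus XEN. Cubn in ADE minus EpiSC passed neither with normexp (0.57) nor in the series matrix (0.57), which holds only its dimmer probe. The share of all genes called in Late minus Mid was 6.85%, against 0% with the replicate block and 4.4% with the array set alone; in NACL minus 2iL it was 8.25%, against 1.52% with the cell line block, and in Mid minus Diff 29.1%, against 11.8% with the replicate block. Probes near background bound the low groups of Cubn and Dab2, and groups of 3 or 4 arrays limit the rest. The slide as a fixed block, normexp on median spot signals, the random block of Mid and Late pairs (2 of 5 genes in nEnd minus XEN), the Cubn bound without NACL replicate 4 and within-slide values were chosen after seeing the data.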
